A study of Homo sapiens with 10 samples.

Results

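Wild-type H441 cells were sequenced in 2 sets of libraries, 2 titled Lipo (Lipo 2 and Lipo 3) and 3 titled WT (WT 1 to WT 3), and the comparison described here sets the first set against the second over every gene. These are 5 of the 10 libraries of a study of TET1, which starts the removal of methyl groups from DNA by oxidising 5-methylcytosine. The labels describe both sets as wild type with no treatment and do not say what Lipo stands for, so no treatment is named for it here. H441 is an established human lung adenocarcinoma line used as a model of the distal airway, and it makes surfactant proteins. All cells were grown in RPMI with fetal bovine serum, and RNA was sequenced with a stranded total RNA kit, which also reads RNA without a poly(A) tail. The other 5 libraries are 3 from H441 with TET1 removed by CRISPR-Cas9 (KO) and 2 from H441 given a plasmid with full-length TET1 (OE). They entered the fit to estimate the spread, and their levels are given beside some genes. KO set against WT, or OE against Lipo, would share libraries with this comparison, so no overlap with such comparisons is given.

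Totals were 24602887 and 22513656 counts in Lipo and 22563999, 25981097 and 22571663 in WT. Of the 5 libraries compared, 1 stood apart. WT 2 and WT 3 differed by a chi-square of 6.36 per gene and Lipo 2 and Lipo 3 by 6.15, but WT 1 differed from WT 2 by 42.8 and from WT 3 by 46.6. The KO libraries, which also set the spread, differed from each other by 39.7 to 65.4, and the number of genes called, 586 with all libraries, was 966 without KO 1 and 977 without KO 3. Counts of calls without WT 1 are given beside most lists. Whether replicates were separate cultures is not stated in the labels, so p-values measure only the spread between these libraries, which may be technical.

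TET1 itself was nearly silent in both sets, with 0 and 1 reads in Lipo and 2, 7 and 0 in WT. The knockout label cannot be checked on it, since KO held 0 to 0.346 CPM (read counts scaled to the size of each library), a range that overlaps WT. OE held 882 and 957 CPM. TET2 (log2 fold change of Lipo over WT -0.25, adjusted p = 0.524) and TET3 (-0.52, adjusted p = 0.119) did not pass the test. The libraries carried lung epithelial RNA: EPCAM stood at 589 and 567 CPM in Lipo and 655, 710 and 633 in WT, and NKX2-1, the lung lineage transcription factor, at 212 and 217 against 286, 245 and 245. Of 14 immune markers, 3 reached the filter on low counts, their levels summed to 1.96 to 2.29 CPM in Lipo and 1.58 to 1.95 in WT, and 7 were at 0 in all 5 libraries. Of 10 fibroblast markers 3 reached it, with DCN, COL1A2, PDGFRA, PDGFRB and THY1 at 0 reads, and COL1A1 (159 and 150 CPM in Lipo, 156, 266 and 272 in WT) made up most of their sum, which was 172 to 185 CPM in Lipo and 179 to 291 in WT. Of 8 endothelial markers 6 reached it, CLDN5 was at 0 reads, and the sum was 84.3 to 87.5 CPM in Lipo and 117 to 120 in WT, nearly all of it KDR (80.2 and 84.5 against 112, 115 and 115, adjusted p = 0.0538). None of the marker genes of these 3 cell types passed the test in edgeR. At an unadjusted p under 0.05 in edgeR, 1 immune marker was higher, and 1 fibroblast and 3 endothelial markers were lower. DESeq2 called 1 immune marker higher and 1 endothelial marker lower. The part of these markers in the results below was not tested.

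Of 15832 genes tested, 586 (3.70%) differed between Lipo and WT at an adjusted p under 0.05 in edgeR's quasi-likelihood test. More fell than rose: 209 (1.32%) were higher in Lipo and 377 (2.38%) were lower. Among the 263 genes (1.66%) that also changed at least 2-fold, 68 (0.430%) were higher and 195 (1.23%) lower. The genes lower in Lipo included genes known for nuclear-retained RNAs, such as MALAT1 and CCNL2, and some surfactant, hypoxia-response and matrix genes. The genes higher in Lipo included some targets of the integrated stress response, some early response genes and most messenger RNAs of the mitochondrial genome. The median change over all genes was -0.02 on the log2 scale, and 90% of genes lay between -1.20 and 0.79.

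**Figure D1:**
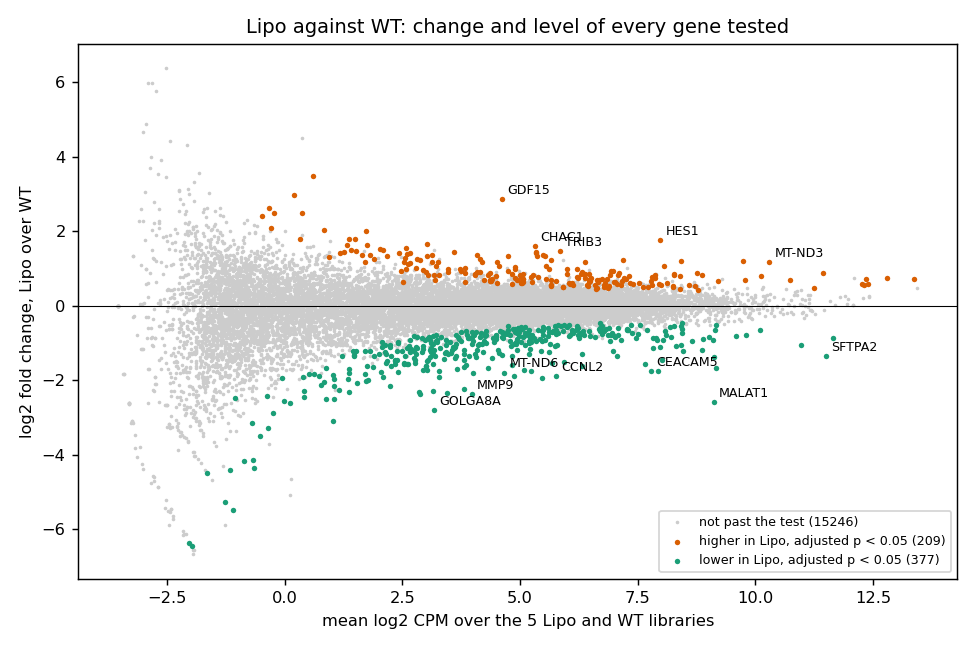
Each point is a gene, placed by its mean log2 CPM over the 5 libraries and its log2 fold change of Lipo over WT, with genes past the test coloured by direction. The 377 lower calls outnumber the 209 higher ones, and GDF15 and HES1 stand highest among abundant genes while MALAT1 and GOLGA8A stand lowest.

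These counts lean on each Lipo library. With Lipo 2 left out 82 genes passed, and with Lipo 3 left out 34, in fits where the remaining Lipo library is assumed to vary as the other groups do. Without WT 1 the count was 498, without WT 2 it was 318 and without WT 3 it was 352. CPM of Lipo and WT did not overlap in 43.6% of all genes, so that property alone marks little.

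The largest rises among well-expressed genes were led by a stress hormone. The 14 largest rises and 14 largest falls were taken only from genes whose Lipo and WT levels did not overlap. Lack of overlap in them is therefore not a separate result. GDF15, a circulating member of the TGF-beta family induced by many kinds of cell stress, stood at 86.0 and 80.5 CPM in Lipo and at 6.36, 13.6 and 14.4 in WT. Both Lipo libraries lay far above all 3 WT libraries, and the fitted change was 7.26-fold (log2 2.86, SE 0.33, adjusted p = 6.31e-04). OE held 54.9 CPM and KO 13.3. GDF15 passed the test with every library left out in turn.

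HES1 and NRARP were also among the largest rises. HES1, a repressor switched on by Notch signalling, stood at 521 and 556 CPM in Lipo and at 228, 128 and 123 in WT, a change of 3.37-fold (adjusted p = 0.00748). NRARP, a Notch target that limits the same pathway, stood at 7.83 and 7.89 CPM against 2.16, 2.71 and 3.59 (2.78-fold, adjusted p = 0.00585). For both genes, lack of overlap was a condition of being among the largest rises. In KO the mean was 82.7 CPM for HES1 and 0.795 for NRARP, below WT. With Lipo 2 left out the adjusted p was 0.0806 for HES1 and 0.0747 for NRARP, and with Lipo 3 left out 0.127 and 0.105.

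Several other rises were held by single genes of varied function. HKDC1, a hexokinase-family enzyme, stood at 16.2 and 15.6 CPM in Lipo and at 4.72, 5.23 and 5.26 in WT (3.13-fold, adjusted p = 9.88e-04). CSRNP1, a nuclear protein, stood at 78.2 and 69.1 CPM against 29.7, 27.8 and 24.0 (2.71-fold, adjusted p = 0.00152). CEBPD, a transcription factor of acute-phase responses, stood at 78.2 and 69.0 CPM against 19.8, 29.6 and 33.9 (2.65-fold, adjusted p = 0.00477). That both Lipo libraries stood above every WT library was a condition for choosing these genes. BBC3, which encodes the pro-apoptotic protein PUMA, stood at 12 and 10.1 CPM against 2.60, 4.24 and 5.78 (2.63-fold, adjusted p = 0.0131). Other named rises were APOBEC1, a cytidine deaminase that edits RNA (2.86-fold), PLTP, which transfers phospholipids between lipoproteins (2.69-fold), DUSP13, a phosphatase (2.68-fold), and TTC39A (2.64-fold). TRIB3 and CHAC1, also among the 14, are described with the stress response. Of the 14, 6 passed without Lipo 2, 4 without Lipo 3 and 13 without WT 1, where DUSP13 was at an adjusted p of 0.0854.

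Outside the 14, because its level is low, GPNMB had one of the steepest rises. GPNMB is a membrane glycoprotein of lysosomes and melanosomes. It stood at 5.74 and 6.79 CPM in Lipo and at 0.823, 0.573 and 0.263 in WT, which is 11.2-fold (log2 3.49, SE 0.41, adjusted p = 6.40e-04). It passed the test with every library left out in turn.

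Among the largest falls, the deepest were in genes known for RNAs kept in the nucleus. GOLGA8A, a golgin-family gene whose transcripts often keep introns, stood at 4.29 and 1.5 CPM in Lipo and at 18.2, 18.1 and 25.2 in WT (7.02-fold lower, log2 -2.81, SE 0.40, adjusted p = 0.00174). Its near-identical copy GOLGA8B moved in the same direction (log2 -2.51, adjusted p = 0.0181), and how reads were split between the copies is uncertain. MALAT1, an abundant long noncoding RNA of nuclear speckles, stood at 223 and 169 CPM against 1848, 737 and 983 (6.06-fold lower, adjusted p = 0.0351). The MALAT1 groups did not overlap, which the choice of the largest falls required. WT 1 was the highest of WT by far, and without it the change was -2.13 with an adjusted p of 0.0675. Without Lipo 2 the adjusted p for MALAT1 was 0.226 and without Lipo 3 it was 0.348, and it was 0.0804 without WT 3, 0.0658 without OE 1 and 0.0660 without OE 2.

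Other large falls were in genes of varied function. ROS1, a receptor tyrosine kinase, stood at 2.83 and 2.64 CPM in Lipo and at 9.96, 15.2 and 17.5 in WT (5.18-fold lower, adjusted p = 6.31e-04). PPFIA4, a liprin scaffold protein, stood at 2.87 and 2.60 CPM against 10.3, 14.1 and 16.7 (5.01-fold lower, adjusted p = 6.74e-04). Both kept passing with every library left out in turn. CEACAM5, the carcinoembryonic antigen, stood at 105 and 114 CPM against 201, 433 and 484 (3.39-fold lower, adjusted p = 0.00477). WT 1 held less CEACAM5 than the other WT libraries, and without it the change was -2.06, against -1.76 with it. Without Lipo 2 the adjusted p for CEACAM5 was 0.0960 and without Lipo 3 it was 0.108. Its relative CEACAM6 stood at 196 and 226 CPM against 454, 501 and 532 (2.35-fold lower, adjusted p = 0.00121), with no overlap.

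For MMP9 and AQP4 the size of the fall rested on WT 1. MMP9, a gelatinase, stood at 6.54 and 5.97 CPM in Lipo and at 57.5, 20.2 and 20.2 in WT, a log2 change of -2.38 with all libraries and -1.69 without WT 1. AQP4, a water channel, stood at 13.6 and 15 CPM against 92.9, 32.6 and 33.7, a log2 change of -1.89 with all and -1.22 without WT 1. Both remained past the test without that library (adjusted p 0.00511 for MMP9 and 0.00239 for AQP4), and both were lost without Lipo 2 (0.288 and 0.250) and without Lipo 3 (0.372 and 0.260). MMP9 was at 0.0575 without OE 2. The remaining named falls were CDK5RAP3 (5.07-fold lower), PSG1 (4.46-fold), RNF207 (3.76-fold), CCNL2 (3.70-fold), ATG16L2 (3.50-fold), MT-ND6 (3.49-fold) and PABPC1L (3.39-fold). Of the 14 largest falls, 8 passed without Lipo 2, 5 without Lipo 3 and 13 without WT 1.

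Most genes of a list built around nuclear-retained RNAs fell. Counts were per gene, and where the RNA lay in the cell was not measured. Most messenger RNA leaves the nucleus after splicing, but some long noncoding RNAs are kept there, among them MALAT1 in speckles and NEAT1 in paraspeckles, and transcripts of several genes for splicing proteins stay there with introns still in place. A list of 24 such RNAs also holds host genes of small nucleolar RNAs, whose spliced transcripts are exported and rapidly degraded. Of 21 members tested, 16 fell and none rose, against 2.38% of all genes lower, and the list's median log2 change was -1.17, against -0.02 over all genes. DESeq2 called the same number, 16 lower and 0 higher, and at an unadjusted p under 0.05 in edgeR 18 were lower and 0 higher. In 18 both Lipo libraries lay below every WT library, as they did in 22.2% of all genes. This list and the others were chosen with earlier results of these data known, so these shares describe the list and do not test it. MALAT1 and CCNL2 are also among the 14 largest falls.

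By role, the noncoding RNAs MALAT1 and NEAT1 both fell. NEAT1 stood at 367 and 267 CPM in Lipo and at 984, 638 and 833 in WT (2.58-fold lower, adjusted p = 0.00119). Without Lipo 3 its adjusted p was 0.0569. Among genes for splicing regulators and their kinases, CCNL2, a cyclin of nuclear speckles, stood at 31.4 and 19 CPM against 85.8, 87.7 and 106 (3.70-fold lower, adjusted p = 9.88e-04). The kinases CLK1 (log2 -1.28) and CLK4 (-1.17), which phosphorylate splicing factors, and DDX5 (-0.93), PNISR (-0.81) and LUC7L3 (-0.95) also fell. CCNL1 (-0.52, adjusted p = 0.166) and SRSF11 (-0.35, adjusted p = 0.142) did not pass.

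OGT and NKTR, genes known for transcripts with a retained intron, moved likewise. OGT, the enzyme that puts O-GlcNAc on proteins, stood at 110 and 103 CPM in Lipo and at 279, 291 and 371 in WT (2.96-fold lower, adjusted p = 9.88e-04). NKTR stood at 28.8 and 23.7 CPM against 65.7, 54.9 and 62.4 (2.32-fold lower, adjusted p = 0.00121), and without Lipo 3 its adjusted p was 0.0670. In both genes every Lipo library lay below every WT library. Of the small nucleolar RNA hosts, SNHG12 (log2 -1.32), SNHG1 (-0.85) and GAS5 (-0.59) fell, and SNHG5 was at 0.19 (adjusted p = 0.709). ANKRD36C fell (-1.31), and MIAT and NPIPB5 did not pass (adjusted p = 0.757 and 0.413).

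The summed level of the 21 RNAs was 1738 and 1456 CPM in Lipo and 5000, 3351 and 3930 CPM in WT. As a share of all counts the list took 0.156% ± 0.0197 (SD, n = 2) in Lipo and 0.416% ± 0.0885 (n = 3) in WT, with no overlap and an exact two-sided permutation p = 0.20, the smallest that 2 against 3 libraries can give. Structural RNA genes of the nuclear genome, such as small nuclear and small nucleolar RNAs, were also lower in both Lipo libraries than in any WT library, with 0.00251% and 0.00223% of counts in Lipo and 0.00455%, 0.00443% and 0.00534% in WT (exact two-sided permutation p = 0.20), and their part in the fall of the listed RNAs was not tested. Of the 16 calls, 8 passed without Lipo 2, 3 without Lipo 3 and 14 without WT 1. The list median stayed between -1.26 and -1.12 with any single library left out.

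Levels of these RNAs in the other groups are given as values only. OE was below KO without overlap in 18 of the 21, where 29.3% of all genes were. CCNL2 averaged 107 CPM in KO and 19.7 in OE, OGT 372 and 95.3, and MALAT1 1213 and 204. OE thus lay near Lipo for these genes and KO near WT. NEAT1 differed, at 579 CPM in KO and 732 in OE. In bulk RNA a smaller number of cells with a transcript and less of it per cell cannot be told apart.

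**Figure D2:**
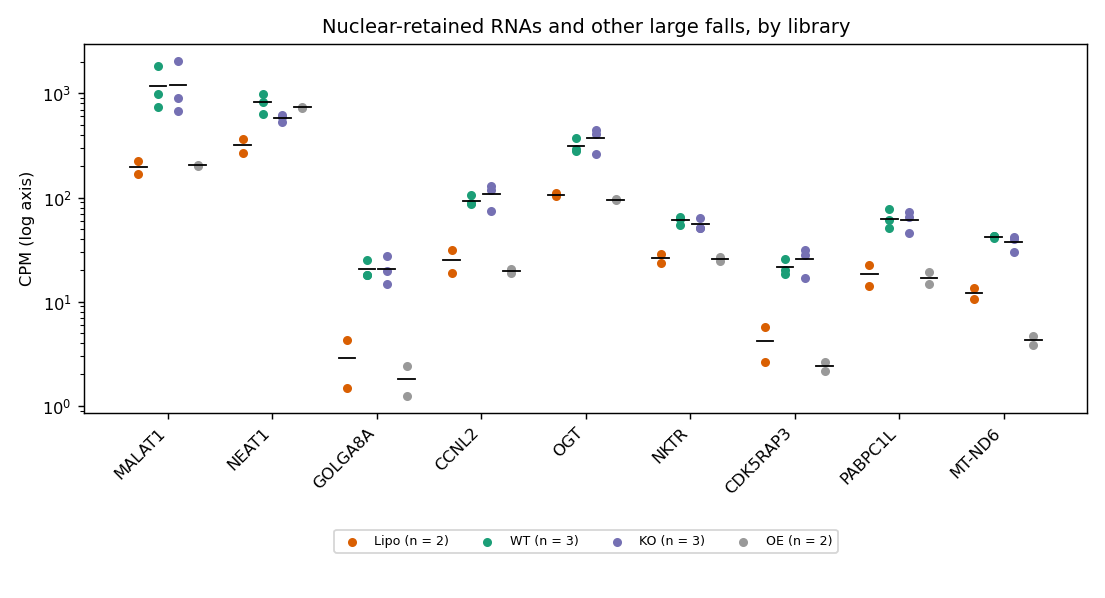
CPM on a log axis for 9 genes in each of the 10 libraries, with points for libraries coloured by group and a bar at each group's mean. For CCNL2 the Lipo libraries sit at 31.4 and 19, below the WT libraries at 85.8 to 106, while for NEAT1 the OE libraries do not sit with Lipo.

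Most mitochondrial messenger RNAs rose, and 1 fell. The mitochondrial genome encodes 13 proteins of the respiratory chain and ATP synthase, copied as long transcripts from 2 strands, with MT-ND6 alone on the light strand. Of the 13, 9 rose and MT-ND6 fell, against 1.32% of all genes higher and 2.38% lower, and the median log2 change was 0.68. MT-ND3, a complex I subunit, stood at 1993 and 2070 CPM in Lipo and at 804, 920 and 1004 in WT (2.23-fold higher, adjusted p = 0.00331). MT-CO2, a complex IV subunit, stood at 10047 and 9377 CPM against 5853, 5454 and 6106 (1.67-fold higher, adjusted p = 0.00927). The Lipo libraries were above all WT libraries in 12 of the 13, as they were in 21.3% of all genes.

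The rises also included MT-CYB (log2 0.88), MT-ND1 (0.72), MT-ND4 (0.71), MT-ND4L (0.68), MT-CO3 (0.58), MT-ATP6 (0.58) and MT-ND5 (0.54). MT-ND2 (0.75, adjusted p = 0.0683), MT-CO1 (0.48, 0.0562) and MT-ATP8 (0.41, 0.155) did not pass. MT-ND6 stood at 13.5 and 10.6 CPM in Lipo and at 40.8, 42.5 and 42.6 in WT (3.49-fold lower, adjusted p = 4.31e-04), and it passed with every library left out in turn. Since the strand setting of the counting is not given in the sources used here, and transcripts from the other strand overlap MT-ND6, its level carries that uncertainty. KO averaged 37.4 CPM of MT-ND6 and OE 4.30.

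All mitochondrially encoded genes together took 8.72% and 8.04% of counts in Lipo and 5.47%, 5.50% and 6.15% in WT, 8.38% ± 0.480 (SD, n = 2) against 5.71% ± 0.387 (n = 3), with an exact two-sided permutation p = 0.20. The 2 mitochondrial ribosomal RNAs were close in both sets, MT-RNR1 at log2 0.22 (adjusted p = 0.408) and MT-RNR2 at 0.20 (0.527). Of 67 nuclear-encoded respiratory chain subunits tested, none passed in either direction in edgeR, with 17 higher and 0 lower at an unadjusted p under 0.05 and 2 higher in DESeq2, and their median was 0.23. Of the 10 mitochondrial calls, 2 passed without Lipo 2, 1 without Lipo 3, 6 without WT 1, 5 without WT 2, 7 without WT 3 and 5 without either OE library. Mitochondrial shares in OE, 4.74% to 4.89%, were not raised.

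By number, the integrated stress response list held the most rises of the lists examined, although the mitochondrial messenger RNAs held 9 of 13. In this response, kinases that sense amino acid shortage, misfolded protein, double-stranded RNA or heme loss phosphorylate the translation factor eIF2, bulk translation slows and the transcription factor ATF4 is made, which switches on amino acid synthesis and transport genes and, under prolonged stress, DDIT3. Its targets carry a C/EBP-ATF response element. Of 26 tested members of a list that joins this response with the unfolded protein response, 11 rose and none fell, against 1.32% of all genes higher, and the median log2 change was 0.49. At an unadjusted p under 0.05, 18 were higher and 1 lower.

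The promoters of ASNS, asparagine synthetase, and CHAC1, which degrades glutathione, are shown because they are the 2 of the 11 rising members whose window holds the core element searched, TGATGNAA on either strand, in capitals. The windows are the 250 bases before the RefSeq transcript start in GRCh38.p14, written 5′ to 3′ along the gene. ASNS lies at chr7:97872409-97872658 on the minus strand and CHAC1 at chr15:40953221-40953470 on the plus strand, where the capitals are the reverse complement of the element.
ASNS: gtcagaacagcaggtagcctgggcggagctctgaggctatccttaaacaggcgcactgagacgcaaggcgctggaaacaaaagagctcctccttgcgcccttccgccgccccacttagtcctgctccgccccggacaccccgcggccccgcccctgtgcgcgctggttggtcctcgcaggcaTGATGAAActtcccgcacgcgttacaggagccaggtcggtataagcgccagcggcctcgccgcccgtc
CHAC1: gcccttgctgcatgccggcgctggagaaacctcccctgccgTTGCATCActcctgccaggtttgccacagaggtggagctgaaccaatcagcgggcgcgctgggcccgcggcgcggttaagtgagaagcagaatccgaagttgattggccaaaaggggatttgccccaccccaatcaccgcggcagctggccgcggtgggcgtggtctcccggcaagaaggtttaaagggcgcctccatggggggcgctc
The element stood in 3.19% of 27305 promoter windows and in 3 of the 25 tested list members with a window, and a match is a description of the letters only.

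TRIB3, a pseudokinase that feeds back on ATF4, stood at 105 and 106 CPM in Lipo and at 31.9, 40.8 and 41.9 in WT (2.76-fold higher, log2 1.46, SE 0.18, adjusted p = 6.74e-04), and passed with every library left out. CHAC1 stood at 80.3 and 77.5 CPM against 17.5, 29.3 and 32.0 (3.0-fold higher, adjusted p = 0.00341), and without Lipo 3 its adjusted p was 0.0619. Both genes were tight in Lipo, and their separation from WT was a condition for being among the largest rises. Among biosynthetic enzymes, CTH, which makes cysteine, stood at 110 and 116 CPM against 63.4, 66.9 and 72.6 (1.67-fold higher, adjusted p = 0.00585). PSAT1, of serine synthesis, stood at 117 and 122 CPM against 75.8, 72.1 and 71.1 (1.64-fold higher, adjusted p = 0.00585). ASNS rose by a log2 of 0.95 (adjusted p = 0.0282).

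The transcription factors of the response divided. DDIT3 (log2 0.73, adjusted p = 0.00995) and CEBPB (0.92, adjusted p = 0.00671) rose, whereas ATF4 RNA, whose protein is controlled mainly at translation, was at 0.16 (adjusted p = 0.544) and ATF5 at -0.49 (0.126). DDIT4, an mTORC1 inhibitor (1.07), and PPP1R15A, which directs removal of the eIF2 phosphate (0.54), rose. The 11 members of the endoplasmic reticulum folding and degradation arm, with XBP1, ranged from -0.18 to 0.85 and none passed, among them the chaperone HSPA5 at 0.31 (adjusted p = 0.221) and XBP1 at 0.44 (0.0572).

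Some transporters for amino acids and sugars also rose. Of 20 tested, 5 rose and 1 fell, against 1.32% of all genes higher and 2.38% lower, with a median of 0.32. SLC1A4, a carrier of alanine, serine and cysteine, stood at 78.0 and 84.4 CPM in Lipo and at 30.2, 32.3 and 34.1 in WT (2.52-fold higher, adjusted p = 4.31e-04), and passed with every library left out. SLC3A2, the heavy chain shared by several amino acid exchangers, stood at 460 and 435 CPM against 199, 281 and 263 (1.81-fold higher, adjusted p = 0.00885), and its partner SLC7A5 rose by a log2 of 1.20. Both are also members of the stress list. The glucose carrier SLC2A3 stood at 10.3 and 9.75 CPM against 2.94, 5.08 and 4.34 (2.43-fold higher, adjusted p = 0.00819). SLC6A14, a broad amino acid carrier, was the one that fell, from 18.1, 18.7 and 17.2 CPM in WT to 8.58 and 5.56 in Lipo (adjusted p = 0.00674). Of the 6 transporter calls, 2 passed without Lipo 2, 1 without Lipo 3 and 6 without WT 1.

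Of the 11 stress-response calls, 2 passed without Lipo 2, 1 without Lipo 3 and 10 without WT 1. OE was above KO without overlap in 21 of the 26 members, where 29.7% of all genes were. TRIB3 averaged 39.6 CPM in KO and 114 in OE, and CHAC1 17.3 and 80.7. For heat shock proteins, another arm of the stress response, 1 of 17 tested rose, against 1.32% of all genes higher. It was HSPB1 (609 and 646 CPM against 305, 328 and 389, adjusted p = 0.0315). HSPB1 did not pass without WT 1 (adjusted p = 0.0708), WT 2 (0.0985), Lipo 2 (0.178), Lipo 3 (0.291), KO 2 (0.0544) or either OE library (0.0529 and 0.0532).

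**Figure D3:**
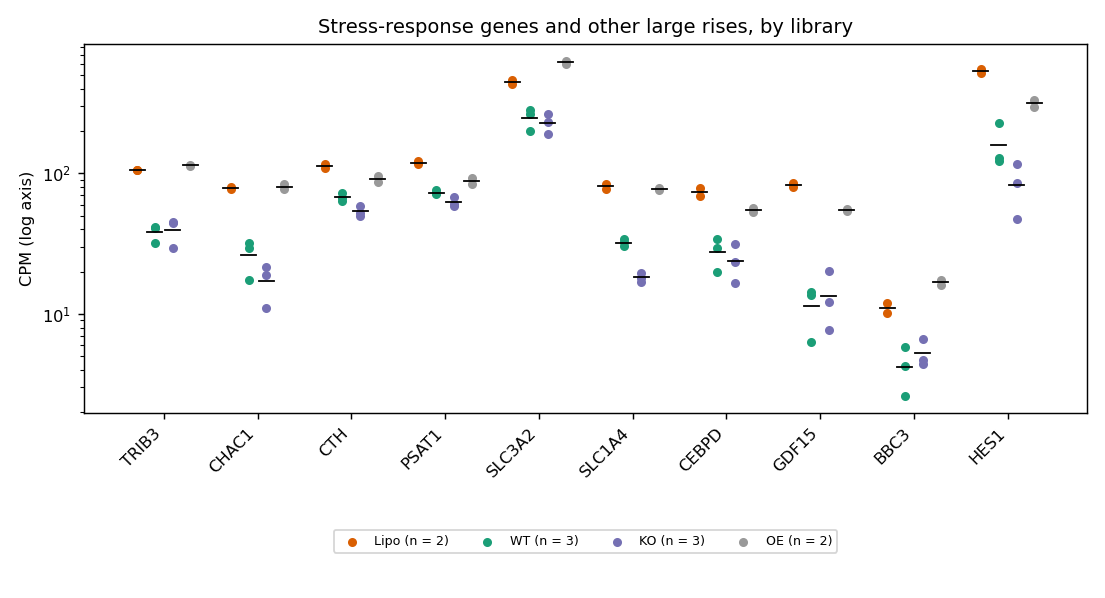
CPM on a log axis for 10 genes in each of the 10 libraries, with points for libraries coloured by group and a bar at each group's mean. The Lipo libraries lie above all WT libraries in each of the 10 genes, with TRIB3 at 105 and 106 against 31.9 to 41.9. For the genes among the largest rises this was a condition of their choice.

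Early response genes rose in part. AP-1 factors and other immediate early genes are switched on within minutes of growth factor or stress signals. Of 23 tested, 6 rose and none fell, against 1.32% of all genes higher, with a median of 0.41. DESeq2 called 8 higher and 1 lower. The log2 change was positive in 17 and negative in 6. Among the AP-1 subunits, JUN was at -0.55 (adjusted p = 0.0516) and FOS at 0.31 (0.466), and neither passed. FOSB, an AP-1 subunit, stood at 252 and 244 CPM in Lipo and at 87.1, 84.2 and 145 in WT (2.35-fold higher, adjusted p = 0.0145), and OE held 70.2 CPM. IER3, an early gene that restrains apoptosis, stood at 37.8 and 36.5 CPM against 12.8, 18.1 and 19 (2.23-fold higher, adjusted p = 0.00932). JUND stood at 46.8 and 42.7 CPM against 18.2, 22.3 and 28.1 (1.96-fold higher, adjusted p = 0.0265). In each of these genes Lipo and WT were apart. None of the 6 passed without Lipo 2 or without Lipo 3, and 3 passed without WT 1, 1 without WT 2, 3 without WT 3 and 3 without either OE library.

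Feedback genes of the ERK pathway gave 4 rises among 18 tested, against 1.32% of all genes higher, with a median of 0.13. DUSP4, a phosphatase that turns ERK off, stood at 9.20 and 9.48 CPM in Lipo and at 3.59, 4.81 and 3.99 in WT (2.26-fold higher, adjusted p = 0.0118). ETV5, a transcription factor downstream of ERK, stood at 96.7 and 108 CPM against 47.4, 63.2 and 67.5 (1.72-fold higher, adjusted p = 0.0138). DUSP5 (log2 0.73) and IER3 were the others. None of the 4 passed without Lipo 2 or without Lipo 3, and all 4 passed without WT 1.

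A few redox and iron genes rose. NRF2 is the transcription factor that turns on glutathione, heme and ferritin genes under oxidative stress. Of 27 genes of that kind tested, 4 rose and none fell, against 1.32% of all genes higher, with a median of 0.15. FTL, the ferritin light chain, stood at 1547 and 1548 CPM in Lipo and at 811, 910 and 940 in WT (1.74-fold higher, adjusted p = 0.00351), and FTH1, the heavy chain, rose by a log2 of 0.47 (adjusted p = 0.0381). Both ferritin genes have many processed copies in the genome, so their counts depend on how shared reads were treated. HMOX1, which breaks down heme, stood at 46.1 and 43.6 CPM against 23.2, 26.6 and 26.5 (1.76-fold higher, adjusted p = 0.0156). GSR, glutathione reductase, stood at 124 and 138 CPM against 74.4, 89.8 and 89.3 (1.55-fold higher, adjusted p = 0.0177). All 4 lost the call without Lipo 2 and without Lipo 3 and kept it without WT 1.

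Some hypoxia-response genes fell. Under low oxygen HIF factors bind the core ACGTG and raise genes for glucose uptake, glycolysis, pyruvate diversion and prolyl hydroxylation. Of 40 hypoxia and glycolysis genes tested, 10 fell and 1 rose, against 2.38% of all genes lower and 1.32% higher, with a median of -0.20. The promoter windows of ANKRD37 and BNIP3 are shown because they are members that fell and hold ACGTG more than once, in capitals, counted on both strands so that CACGTG holds it on each. ANKRD37 lies at chr4:185396591-185396840 on the plus strand and BNIP3 at chr10:131981924-131982173 on the minus strand, from RefSeq in GRCh38.p14.
ANKRD37: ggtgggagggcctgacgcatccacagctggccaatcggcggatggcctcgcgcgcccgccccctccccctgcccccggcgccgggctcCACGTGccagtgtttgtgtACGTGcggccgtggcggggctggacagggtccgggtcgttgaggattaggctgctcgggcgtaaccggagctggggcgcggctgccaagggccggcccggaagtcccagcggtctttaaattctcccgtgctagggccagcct
BNIP3: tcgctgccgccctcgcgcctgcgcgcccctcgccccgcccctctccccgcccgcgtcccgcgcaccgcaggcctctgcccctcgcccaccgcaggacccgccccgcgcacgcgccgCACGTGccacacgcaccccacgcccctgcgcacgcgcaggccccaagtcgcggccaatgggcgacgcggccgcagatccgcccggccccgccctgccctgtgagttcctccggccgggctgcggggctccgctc
ACGTG stood in 18.7% of all 27305 windows, in 19 of 36 windows of tested list members and in 5 of the 10 that fell.

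PDK1, a kinase that inhibits pyruvate dehydrogenase, stood at 28.3 and 26.2 CPM in Lipo and at 57.8, 51.9 and 47.2 in WT (1.92-fold lower, adjusted p = 0.00341). INSIG2, which retains the sterol sensor in the endoplasmic reticulum and is a HIF target, stood at 19.5 and 19.6 CPM against 42.2, 41.4 and 36.7 (2.05-fold lower, adjusted p = 0.00446). ANKRD37 stood at 2.12 and 2.51 CPM against 6.97, 6.64 and 6.53 (2.90-fold lower, adjusted p = 0.00477). The Lipo libraries were close to each other and below WT in all 3. The others were ANGPTL4 (log2 -1.20), the regulators of fructose bisphosphate PFKFB3 (-0.86) and PFKFB4 (-0.75), ENO2 (-0.80), the oxygen sensor EGLN3 (-0.74), the histone demethylase KDM3A (-0.68) and the mitophagy receptor BNIP3 (-0.61).

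Among glycolytic enzymes, ENO2 fell as given above, and GPI (0.18), GAPDH (0.26), PGK1 (-0.21), ENO1 (0.01) and PKM (0.05) did not pass, nor did VEGFA (-0.35, adjusted p = 0.155) or CA9 (0.32, 0.764). SLC2A3 was the one member that rose. None of the 11 calls passed without Lipo 2 or without Lipo 3. Without WT 1 10 passed, without WT 2 6 and without WT 3 10.

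The surfactant protein genes that passed the test fell, and other lung differentiation genes changed in both directions. Alveolar type 2 cells make surfactant proteins A, B, C and D, which lower surface tension and bind microbes, under the control of NKX2-1 and FOXA factors. Of 19 alveolar and club cell genes tested, 6 fell and 3 rose, against 2.38% of all genes lower and 1.32% higher, with a median of -0.24. SFTPA2 stood at 1578 and 1712 CPM in Lipo and at 3686, 4271 and 4670 in WT (2.56-fold lower, log2 -1.36, SE 0.15, adjusted p = 5.72e-04). SFTPA1, a near-identical copy whose shared reads may be split between the genes, stood at 2122 and 2346 CPM against 3847, 3984 and 4310 (1.81-fold lower, adjusted p = 0.00345). SFTPB stood at 74.7 and 77.1 CPM against 180, 186 and 218 (2.56-fold lower, adjusted p = 6.74e-04).

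SFTPA2 and SFTPB passed with every library left out. FOXA2, a transcription factor of lung endoderm, rose from 1.34, 1.64 and 1.53 CPM in WT to 5.50 and 5.06 in Lipo (3.49-fold higher, adjusted p = 0.00477). SOX2, a factor of airway progenitors from the squamous list, stood at 69.8 and 75.1 CPM against 23.3, 30.9 and 31.3 (2.54-fold higher, adjusted p = 0.00108), with 92.3 CPM in KO and 33.9 in OE. In each of these genes Lipo and WT were apart. Of the 9 alveolar and club cell calls, 2 passed without Lipo 2, 2 without Lipo 3, 8 without WT 1 and 7 each without WT 2 and WT 3. In the squamous list of 17 tested, SOX2 and LCN2 rose and 3 fell, where 1.32% of all genes were higher and 2.38% lower. The falls included S100A2 (47.9 and 47.5 CPM against 69.6, 150 and 132) and KRT4 (123 and 144 against 280, 194 and 206). Of these 5, SOX2 alone passed with either Lipo library left out, S100A2 also did not pass without WT 2, and all 5 passed without WT 1.

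**Figure D4:**
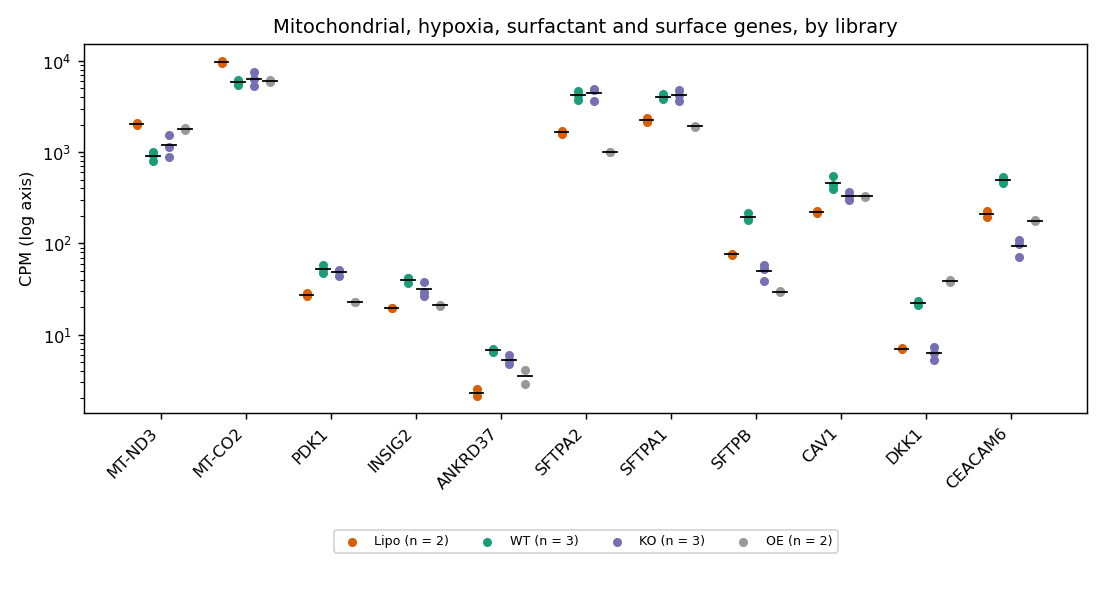
CPM on a log axis for 11 mitochondrial, hypoxia, surfactant and surface genes in each of the 10 libraries, with points for libraries coloured by group and a bar at each group's mean. MT-ND3 and MT-CO2 are higher in Lipo, and the other 9 genes are lower, with SFTPA2 at 1578 and 1712 in Lipo against 3686 to 4670 in WT.

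A minority of matrix, adhesion and caveolar genes passed the test as lower. Of 25 mesenchymal genes tested, 5 fell and none rose, against 2.38% of all genes lower, with a median of -0.58. Of 20 integrins and laminins 5 fell and none rose, with a median of -0.57. The log2 change was negative in 21 of the mesenchymal genes and 19 of the integrins and laminins. At an unadjusted p under 0.05 in edgeR, 12 and 10 were lower and none higher, where 1650 of all 15832 genes were lower. CD44, a hyaluronan receptor, stood at 4.16 and 3.97 CPM in Lipo and at 16.9, 10.1 and 10.9 in WT (3.10-fold lower, adjusted p = 0.0126). TGFBI, a secreted TGF-beta-induced matrix protein, stood at 1367 and 1295 CPM against 4024, 2231 and 1984 (log2 -1.05, adjusted p = 0.0224), and without WT 1 its log2 change was -0.66. ITGA2, a collagen receptor subunit, stood at 101 and 97.0 CPM against 153, 188 and 168 (1.72-fold lower, adjusted p = 0.0129). ITGB6 fell by a log2 of 0.91 and was at an adjusted p of 0.0931 without WT 1.

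None of the 5 mesenchymal or 5 integrin and laminin calls passed without Lipo 2 or without Lipo 3. Without WT 1, 3 and 4 of them passed, without WT 2, 2 and 0, without WT 3, 3 and 4, and without either OE library, 3 and 3. Caveolae are flask-shaped pits of the cell membrane built by caveolins and cavins. Of 21 endocytosis genes tested, 3 caveolar genes fell and none rose, against 2.38% of all genes lower, with a median of -0.03. CAV1 stood at 215 and 225 CPM in Lipo and at 546, 436 and 397 in WT (2.09-fold lower, adjusted p = 0.00163). CAV2 (log2 -0.80) and CAVIN1 (-0.73) were the others. Of these 3, 1 passed without Lipo 2, none without Lipo 3 and all 3 without WT 1.

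Among 23 matrix proteases and inhibitors, 4 fell and 1 rose, against 2.38% of all genes lower and 1.32% higher. PLAT, tissue plasminogen activator, stood at 295 and 293 CPM in Lipo and at 578, 1097 and 1127 in WT (3.18-fold lower, adjusted p = 0.00425). MMP13, a collagenase, stood at 20.4 and 19.5 CPM against 40.4, 39.1 and 38.5 (1.97-fold lower, adjusted p = 0.00512). MMP15, a membrane-bound protease, was the one that rose, at 189 and 178 CPM against 67.4, 108 and 114 (adjusted p = 0.0250). Of 24 TGF-beta targets tested, 4 fell and 1 rose, and of 25 YAP and TAZ targets 2 fell. The lists share genes, so their counts are not separate results. The 2 YAP and TAZ calls were AXL (log2 -1.63) and TGFB2 (-1.45), and AXL was also a call of the mesenchymal list. INHBA, which encodes an activin subunit, was low throughout, at 0.0833 and 0.182 CPM against 2.42, 0.993 and 1.23 (adjusted p = 0.00426). None of the protease, TGF-beta or YAP calls passed without Lipo 2 or without Lipo 3. Of the 5 protease calls 4 passed without WT 1. Of the 5 TGF-beta calls 3 passed with any 1 WT or OE library left out, and of the 2 YAP calls none passed without WT 2 and 1 without WT 1, KO 2 or either OE library.

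DKK1, a secreted Wnt antagonist, was the only call among 11 Wnt genes tested, against 3.70% of all genes called. It stood at 6.95 and 7.11 CPM in Lipo and at 23.2, 20.9 and 22.0 in WT (3.13-fold lower, log2 -1.65, SE 0.18, adjusted p = 4.55e-04). It passed with every library left out in turn. KO held 6.27 CPM and OE 39.1.

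Lipid genes rose in small number. SREBP factors raise cholesterol and fatty acid synthesis when membrane sterol is low. Of 24 cholesterol genes tested, INSIG1, DHCR7 and MSMO1 rose and none fell, against 1.32% of all genes higher, with a median of 0.30. INSIG1, which holds the sterol sensor, stood at 202 and 212 CPM in Lipo and at 139, 132 and 135 in WT (1.53-fold higher, adjusted p = 0.00847). DHCR7, the last enzyme of cholesterol synthesis, stood at 294 and 291 CPM against 169, 193 and 192 (1.58-fold higher, adjusted p = 0.0138). Of 23 fatty acid and lipid droplet genes, SCD, a desaturase (2263 and 2299 CPM against 1203, 1520 and 1519, adjusted p = 0.0163), and ACSL1 rose. Of 27 lysosome and autophagy genes, GPNMB and the cholesterol exporter NPC1 (112 and 120 CPM against 67.2, 76.6 and 79.8, adjusted p = 0.0119) rose. Of these calls only GPNMB passed without Lipo 2 or without Lipo 3, and all 7 passed without WT 1. Without WT 2 or WT 3, 1 of the 2 fatty acid calls passed.

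Few interferon-stimulated genes passed the test. Of 44 tested, 3 rose and 1 fell, against 1.32% and 2.38% of all genes, with a median of 0.08. At an unadjusted p under 0.05 in edgeR, 14 were higher and 3 lower, where 1312 and 1650 of all 15832 genes were. DESeq2 called 6 higher and 1 lower. OASL, an antiviral sensor-related protein, stood at 6.66 and 7.34 CPM in Lipo and at 1.13, 3.63 and 1.88 in WT (3.11-fold higher, adjusted p = 0.0140), and OE held 338 CPM. IFI35 and IFIT2 also rose, and PARP14 fell. Of 16 class II presentation genes listed, 5 were tested, and no gene for an HLA class II chain was among them. Of these 5, the master regulator CIITA (2.54 and 2.46 CPM against 0.433, 0.764 and 0.964, adjusted p = 0.00866) and CD74 (53.2 and 50.7 against 34.9, 27.6 and 29.1, adjusted p = 0.0169) rose. The regulators RFX5, RFXAP and RFXANK did not pass. Of 14 class I genes none passed in edgeR, with 3 higher and 0 lower at an unadjusted p under 0.05 and 1 higher in DESeq2. None of the interferon or class II calls passed without Lipo 2 or without Lipo 3. Of the 4 interferon calls 3 passed without WT 1 and 2 without WT 2, WT 3 or either OE library, and of the 2 class II calls both passed without WT 1 and 1 without WT 2 or WT 3.

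Few growth or ribosome genes passed the test. Of 40 mitosis genes tested CENPE and ASPM fell and of 40 replication genes POLE fell, against 2.38% of all genes lower, and their medians were 0.01 and -0.03. CENPE stood at 61.9 and 53.2 CPM in Lipo and at 111, 93.8 and 86.1 in WT (adjusted p = 0.0303). None of the 3 passed with Lipo 2, Lipo 3, WT 2, KO 2, OE 1 or OE 2 left out, and 1 passed without WT 1 (POLE) and without WT 3 (CENPE). At an unadjusted p under 0.05 in edgeR, 7 mitosis genes were lower and 1 higher, and 6 replication genes were lower and 1 higher. Of all 15832 genes, 1650 were lower and 1312 higher at that threshold. DESeq2 called 4 mitosis and 3 replication genes lower and none higher. Of 76 cytosolic ribosomal protein genes none passed in edgeR, with 10 higher and 1 lower at an unadjusted p under 0.05 and 1 in each direction in DESeq2, and the median was 0.15. Among p53 targets CDKN1A, the cell cycle inhibitor p21, stood at 99.7 and 123 CPM against 69.7, 56.2 and 60.4 (1.79-fold higher, adjusted p = 0.0185). GDF15 and BBC3 were the other 2 rises of 29 tested, against 1.32% of all genes higher. CDKN1A was at an adjusted p of 0.0781 without Lipo 2, 0.316 without Lipo 3, 0.0857 without WT 2 and 0.0598 without WT 3.

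Among enzymes of xenobiotic metabolism, CYP1B1, a target of the aryl hydrocarbon receptor, stood at 130 and 143 CPM in Lipo and at 57.7, 57.8 and 65.9 in WT (2.26-fold higher, adjusted p = 0.00121). It passed with every library left out. EPHX1 (1.54-fold) rose and ALDH1A3 (1.56-fold lower) fell among the 15 tested. Over all genes, 1.32% were higher and 2.38% lower. Of 19 genes that write, erase or read DNA methylation, IDH1, which makes the 2-oxoglutarate that TET enzymes use, rose (303 and 328 CPM against 199, 187 and 179, adjusted p = 0.0190) and OGT, a partner of TET proteins, fell. IDH1 was at an adjusted p of 0.122 without Lipo 2, 0.258 without Lipo 3, 0.0759 without WT 2 and 0.0670 without WT 3.

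**Figure D5:**
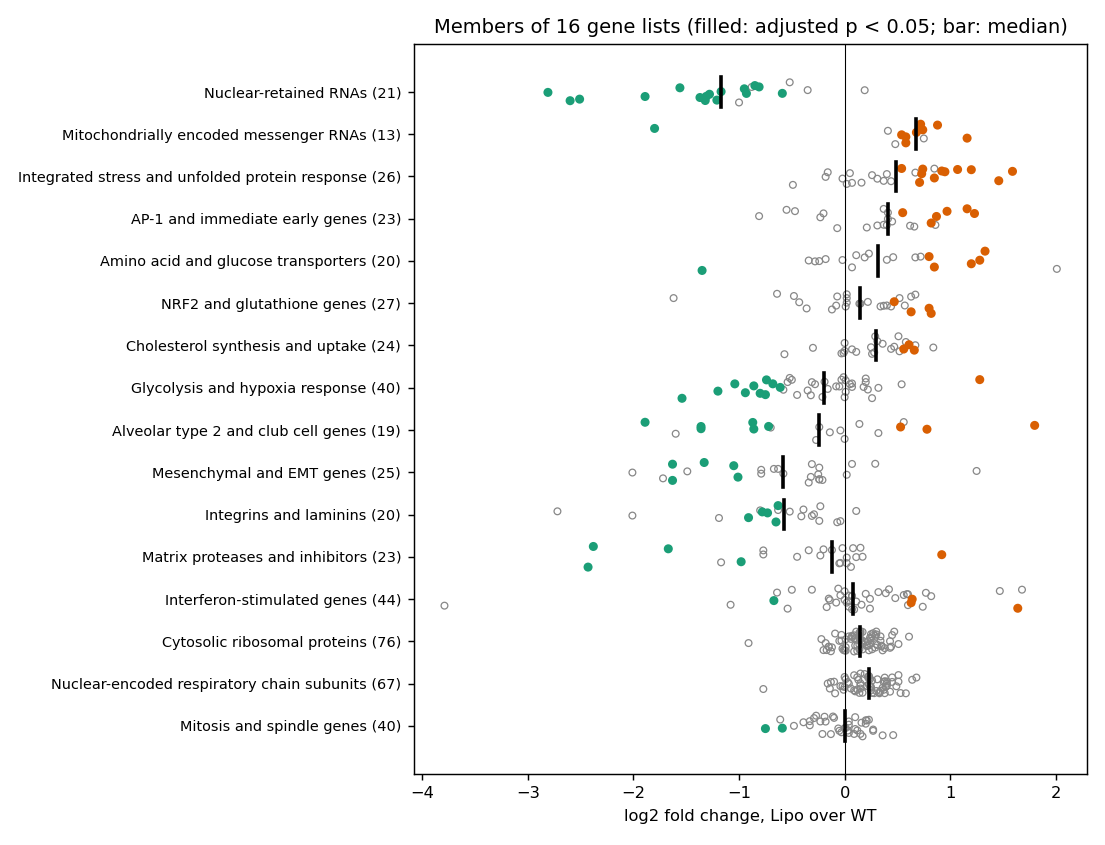
Log2 fold changes of Lipo over WT for the tested members of 16 gene lists, with 1 point per gene, filled where the adjusted p is under 0.05, and a bar at each list's median. The nuclear-retained list has the lowest median, -1.17, and the mitochondrial messenger RNAs the highest, 0.68, with MT-ND6 apart at -1.80.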

How the data were processed

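Total RNA of H441 cells was sequenced in 10 libraries. The values deposited by the authors are raw read counts, not normalized, in 62710 gene rows, of which 1 (ANK2) had no values, and 28084 had a count. A further 2 columns matched no sample and were not used. Per the submitters' processing notes, the authors used HISAT2 2.1.0, FastQC, featureCounts, edgeR and GRCh38, with no role or order. The annotation and strand setting are not given in the sources used here, so antisense and overlapping genes carry that uncertainty.

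Counts were tested with edgeR 4.0.16 in R 4.3.3 (TMM scaling, filterByExpr on the 4 groups, robust quasi-likelihood fit of all 10 libraries, 6 residual degrees of freedom). Tests were two-sided, with Benjamini-Hochberg adjustment over 15832 genes and a threshold of 0.05. Fitting all libraries was chosen because Lipo against WT alone leaves 3 residual degrees of freedom. Levels are CPM on the TMM-adjusted library size. Shares were compared by exact permutation in Python 3.11.15 with scipy 1.17.1. Gene types and lengths came from GENCODE 29, which held 15352 of the tested genes, and promoter windows from RefSeq (GRCh38.p14). Total counts were 20994462 to 25981097 per library.

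The text names TET1 to TET3, the 14 largest rises and 14 largest falls (past the test, mean log2 CPM of at least 2, no overlap, no clone name or pseudogene) and up to 4 members per list with the smallest p. Other members are named to complete a list's account, after their values were seen. Some genes that the rule selects are not reported here. The comparison and the lists were chosen with earlier results of these data known, and no set test was run. Alternatives were DESeq2 1.42.0, RLE scaling, library size alone, no filter, a filter of 1 CPM in 3 libraries with 100 counts, the 5 libraries alone, mitochondrial and structural RNA genes left out, a replicate block, and each library left out.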

Additional observations from a re-analysis of the deposited data

How the results depend on the processing

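The count of genes passing, 586 (209 higher, 377 lower, 263 at least 2-fold), was 992 (391 and 601) in DESeq2 and 1100 (464 and 636) without a filter on low counts. With each library left out in turn it ranged from 34 to 977, higher calls from 12 to 426, lower calls from 22 to 573 and calls of at least 2-fold from 34 to 306. It was lowest without Lipo 3 and highest without KO 3, and it was 966 without KO 1. RLE scaling gave 561, library size alone 617, and leaving out mitochondrial and structural RNA genes 552. Replicate numbers did not meet the bar for pairs: deviations of same-numbered libraries correlated at -0.0073 and -0.057 for Lipo with WT, and at 0.3285, 0.0577 and 0.1848 for WT with KO, with the others between -0.04 and 0.0228. With the number as a replicate block over all 10 libraries 850 passed (317 higher, 533 lower), but 2 of the 5 matrix protease calls, 12 of the 14 largest falls and 13 of the 14 largest rises remained past the test, and over the 5 libraries alone, with 1 residual degree of freedom, 3684 (1794 higher, 1890 lower, 526 at least 2-fold). The cause of these differences was not tested. The difference in mitochondrial share ranged from 2.33 to 3.01 percentage points and that in structural RNA share from -0.00258 to -0.00212 with a library left out. With 2 Lipo libraries, small changes in genes with few reads could not be detected.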

Other observations

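By gene type, calls were uneven around the shares over all genes, 1.32% higher and 2.38% lower. Of 158 genes annotated as processed transcripts, a class of noncoding RNAs that includes small nucleolar RNA hosts, 14 (8.86%) were lower and 1 higher, with a median log2 change of -0.27. Transcribed unprocessed pseudogenes had a median of -0.80 over 40 genes with 3 lower, transcribed unitary pseudogenes -0.53 over 34 with 4 lower, and sense intronic RNAs -0.45 over 85 with 4 lower, and none of these 3 classes had a higher call. Long intergenic noncoding RNAs had a median of -0.05 over 714 genes, with 14 lower (1.96%) and 2 higher (0.280%). The 12218 protein-coding genes had a median of -0.01, with 193 higher and 300 lower.

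Direction also moved with transcript length. Among protein-coding genes split by exonic length into 5 bins of like size, the median log2 change was 0.12 in the shortest (207 to 2950 bases) and 0.02, -0.02, -0.05 and -0.09 in the longer ones. Higher calls numbered 72, 44, 35, 27 and 15 from shortest to longest, and lower calls 23, 47, 60, 72 and 98. Ribosomal protein genes and nuclear-encoded respiratory chain genes, many of them short, had medians of 0.15 and 0.23. The part of length in the other results was not tested. By chromosome, medians ran from -0.10 on chromosomes 13 and 18 to 0.11 on chromosome 19, and stood at 0.58 over the 22 genes of the mitochondrial genome.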
